A study of Mus musculus with 8 samples.

Results

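The genes described here are named for the proteins of the cytosolic ribosome, and most of them encode these. They were chosen by symbol: Rpl or Rps with a number and at most a short suffix, Rplp0 to Rplp2, and Rpsa, leaving out the Rps6 kinases and names marked as pseudogenes. This gave 87 of 25017 named rows, 37 for the small (40S) subunit and 50 for the large (60S) subunit. Rps4l, Rps3a2, Rps3a3 and Rps12l1 stayed in by name, although the gene annotation lists them as pseudogenes. Messenger RNA had been sequenced from dendritic cells that were grown from the marrow of C57BL/6 mice with GM-CSF (20 ng/ml) and IL-4 (10 ng/ml) and then given CpG, synthetic DNA that is sensed by the receptor TLR9 in endosomes. The cells were of 2 genotypes, RelB-DBDB and IFNAR;RelB-DBDB, and all carried the RelB-DBDB allele of the NF-κB subunit RelB, whose change is not given in the sources used here. The IFNAR;RelB-DBDB cells also lacked IFNAR, the type I interferon receptor, per the series description. Each genotype had 1 library of control cells, labelled 1 h, and 1 library each at 1, 3 and 8 h of 0.1 µM CpG, so 8 libraries in all. No control of 3 or 8 h was used here, so CpG and time in culture cannot be told apart at those times, and no library without the RelB-DBDB allele was used.

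A ribosome holds 1 copy of nearly every ribosomal protein, and a cell makes them in matched amounts. Their mRNAs are short, abundant and stable, and their translation is switched by mTOR signalling through a run of pyrimidines at the 5′ end. Dendritic cells that sense microbial DNA through TLR9 raise their protein synthesis early and change it again as they mature. Several ribosomal proteins also act outside the ribosome, for example as ligands of Mdm2, the ubiquitin ligase that holds p53 low.

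One library stood apart from the other 7. The RelB-DBDB library at 8 h held 37221530 reads, against 3711818 to 11977778 in the others. Mitochondrially encoded genes took 6.26% of its reads, against 1.74% to 2.41% in the others. Of the 12288 tested genes with a unique name, 44.4% were lower there than in each of the other 7 libraries and 14.3% were higher than in each. Of 12 listed dendritic cell markers, 11 or 12 were above 1 CPM (counts per 1000000 reads of the library) in each library. Cd74 was at 4194 to 8554 CPM and Itgax (CD11c) at 645 to 1374 CPM, while Cd209a reached at most 2.46 CPM. All 9 macrophage and monocyte genes with values were also above 1 CPM in each library. These counts thus do not set dendritic cells apart from macrophages. Values at 8 h under RelB-DBDB rest on that library alone, and the fitted changes at 8 h on it and 1 other.

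Of the 87 ribosomal protein genes, 81 had at least 1 CPM in at least 2 libraries and were tested, 33 of the small and 48 of the large subunit. The other 6 were Rps3a2, Rps3a3, Rpl24, Rpl39l, Rps12l1 and Rps12l2. None of these reached 0.668 CPM in any library, and the last pair had no reads. Rpl24 was listed at 0 to 0.424 CPM, although the gene encodes a standard protein of the large subunit. Rpl24 has 0 annotated copies with a pseudogene name, and the cause of its low level was not tested. Reads from a gene and its near-identical copies can be split or discarded by the counting. The table holds 186 rows named as ribosomal protein pseudogenes, which took about 0.003% of reads in each library.

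Levels between genes were compared per kilobase of transcript. The median of 80 tested members with a length was 450.3 CPM per kb, averaged over the 8 libraries. Rplp1 was highest, at 1771 CPM per kb. It encodes an acidic protein of the P stalk, the arm of the large subunit that recruits elongation factors. Rps9 (1101 CPM per kb), a protein of the small subunit, and Rpl8 (1083 CPM per kb), a protein of the large subunit, came next. The 3 lowest members were paralogues, genes that resemble a standard ribosomal protein gene: Rpl22l1 (70.6 CPM per kb), Rpl7l1 (34.3 CPM per kb) and Rpl3l (1.84 CPM per kb), the last known from muscle. Outside the RelB-DBDB 8 h library the members were steady: the highest of the 7 CPM values of a gene was a median of 1.25 times the lowest. With that library included, the median was 1.92 times.

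The members together took 3.54% of the reads of the RelB-DBDB control library. In the same genotype they took 3.49% at 1 h, 3.13% at 3 h and 2.14% at 8 h. In IFNAR;RelB-DBDB cells they took 3.43% in control, 3.18% at 1 h, 3.01% at 3 h and 3.04% at 8 h. The share was therefore lower than in control at every CpG time in both genotypes, and at 8 h it was 60.5% of the control share in RelB-DBDB cells and 88.6% in IFNAR;RelB-DBDB cells. Scaled by median-ratio factors, which set the typical gene equal between libraries, the same sums were 3.35, 3.37, 3.28 and 2.70 percent in RelB-DBDB and 3.10, 2.90, 3.07 and 2.99 percent in IFNAR;RelB-DBDB cells. On that scale the RelB-DBDB 8 h library was also the lowest, and the 3 h sums lay close to those of control. In bulk samples, fewer cells of a type and less RNA per cell cannot be told apart.

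The 2 subunits kept nearly the same proportion in 6 libraries. The summed CPM of the small subunit was 0.725, 0.713 and 0.720 times that of the large subunit in RelB-DBDB cells in control and at 1 and 3 h, and 0.707, 0.719 and 0.729 times in IFNAR;RelB-DBDB cells. At 8 h the ratio was 0.544 in RelB-DBDB and 0.767 in IFNAR;RelB-DBDB cells, below and above those values. This ratio does not depend on how libraries are scaled.

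**Figure D1:**
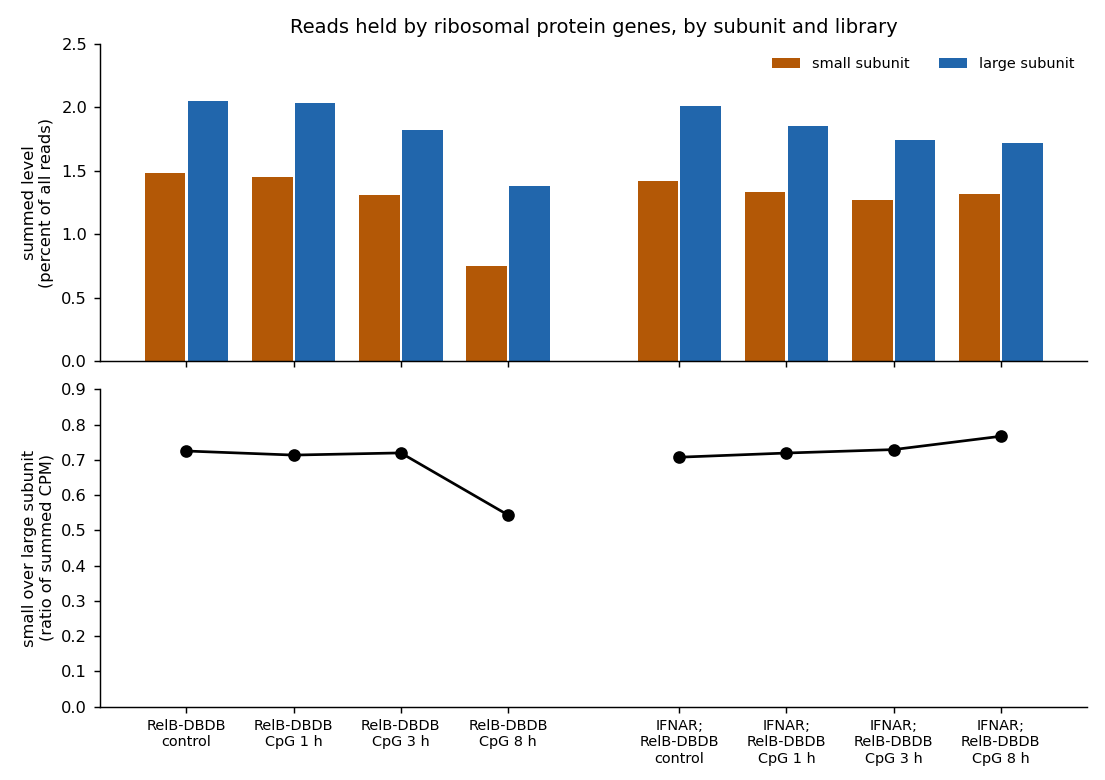
Upper panel: summed level of the small and large subunit genes in each library, in percent of all reads. Lower panel: ratio of the summed CPM of the small to the large subunit, which was 0.544 in the RelB-DBDB 8 h library and 0.707 to 0.767 in the other 7; each point is 1 library.

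The first comparison asked what 1 h of CpG did to these genes. No member passed the test in the fit over both genotypes (limma on log2(CPM + 1), Benjamini-Hochberg adjusted p under 0.05), beside 0.0651% of all 12297 tested genes. At an unadjusted p under 0.05 the count of members was also 0, and limma-voom called 0. The median log2 change of the members was -0.05, beside -0.01 for all genes. Within each genotype the members' median was -0.02 (SD over members 0.13) in RelB-DBDB and -0.10 (SD 0.14) in IFNAR;RelB-DBDB cells. With 1 library a group, p-values measure only the spread between these libraries.

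At 3 h the members stood slightly lower than in control, and so did genes in general. No member passed the test, beside 7.51% of all genes, 3 had an unadjusted p under 0.05, and limma-voom called 0. The median log2 change was -0.18 for the small and -0.18 for the large subunit, beside -0.16 for all genes. In the single libraries 69 of 81 members were below control in both genotypes, 85.2% of them beside 54.8% of all genes. With median-ratio factors 32 of 81 members were below control in both genotypes and 22 were above in both, so that the direction at 3 h depended on the scaling. Without the RelB-DBDB 8 h library the same fit called 30 members lower at 3 h, beside 35.2% of all genes. Leaving out the 8 h library of IFNAR;RelB-DBDB cells instead, it called 29, beside 35.2%. Counted in either direction, those calls were at the level of all genes. Calls lower alone took a larger share of the members than of all genes. The members' median log2 change in both fits was -0.18, beside -0.16 for all genes.

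A few genes were lower early in both genotypes; they were chosen after their values were seen. Rpl13, which encodes a large subunit protein, was at 383 CPM in RelB-DBDB control, 294 at 1 h, 249 at 3 h and 212 at 8 h. In IFNAR;RelB-DBDB cells it was at 348, 266, 235 and 301 CPM. The order of the first 3 conditions was the same in both genotypes, and the 8 h value was lower than at 3 h in RelB-DBDB and higher in IFNAR;RelB-DBDB cells. Rpl27a, of the large subunit, was measured at 542, 451, 380 and 299 CPM along the RelB-DBDB course, and at 539, 376, 350 and 473 CPM along that of IFNAR;RelB-DBDB cells. It followed the same course as Rpl13 in each genotype.

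At 8 h, 3 of 81 members passed the test, all lower, beside 21.6% of all genes called and 15.1% called lower. The share of members called was thus below the background. A large change in 1 genotype alone counts as spread in this fit. Rps14 and Rps10, far lower at 8 h in RelB-DBDB cells and level with control in IFNAR;RelB-DBDB cells, had SEs of 0.51 and 0.50. The 3 called were Rps16 (mm10 chr7:28350652-28353155, plus strand), Rpl3 (chr15:80077791-80091868, minus strand) and Rplp1 (chr9:61913284-61914542, minus strand). At an unadjusted p under 0.05 the count of members was 36, these 3 included. The median log2 change was -0.60 for the small and -0.44 for the large subunit, beside -0.23 for all genes. Without the RelB-DBDB 8 h library the medians were -0.11 for the small and -0.19 for the large subunit, beside -0.12 for all genes, so that the size and the order of the subunits rested on that library. With median-ratio factors the medians on all 8 libraries were -0.33 and -0.17, beside 0.01 for all genes, and no member was called.

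Rps16, of the small subunit, had 237, 226, 208 and 85.3 CPM under RelB-DBDB (control, 1, 3 and 8 h) and 234, 215, 196 and 170 CPM under IFNAR;RelB-DBDB. Both 8 h libraries were the lowest of their genotype. It fell by 0.96 on the log2 scale (SE 0.27, adjusted p = 0.0451, limma). Rpl3, a protein whose extension reaches toward the peptidyl transferase centre, was at 618, 594, 511 and 268 CPM in the RelB-DBDB libraries, beside 553, 537, 483 and 429 CPM with IFNAR;RelB-DBDB. The levels went down with each later time in both genotypes. It fell by 0.78 (SE 0.22, adjusted p = 0.0450, limma). Rplp1 of the P stalk was measured at 999, 991, 849 and 472 CPM along the RelB-DBDB course, and at 1116, 912, 914 and 816 CPM along that of IFNAR;RelB-DBDB cells. It fell by 0.77 (SE 0.22, adjusted p = 0.0452, limma). Without the RelB-DBDB 8 h library the 3 log2 changes were -0.44, -0.38 and -0.40, and all 3 were still called.

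The count at 8 h depended on which libraries were kept, and was 0 when any 1 of the other 6 was left out. Without the RelB-DBDB library 12 members were called (11 lower and Rps27l higher), beside 26.3% of all genes. The 11 that were lower held Rps16, Rpl3, Rplp1, Rplp2 and Rpl22l1. Without the IFNAR;RelB-DBDB library 69 members were called, 65 of them lower, beside 57.7% of all genes. limma-voom on all 8 libraries called 15, all lower, beside 35.1%. Between 3 and 8 h no member was called, beside 1.71% of all genes; 6 had an unadjusted p under 0.05, and limma-voom called 0. Without the IFNAR;RelB-DBDB 8 h library that count was 63, beside 41% of all genes, and without the RelB-DBDB 8 h library it was 3, beside 8.33%.

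The RelB-DBDB 8 h library held most of the variation among the members. Against its own control their log2 change had a median of -0.91, beside -0.36 for all genes. The members' changes had an SD of 0.74 and ran from -3.26 (Rpl22l1) to 1.25 (Rpl35). In it 33 of 81 members were at least 2-fold lower, beside 19.6% of all genes. In the IFNAR;RelB-DBDB 8 h library 0 of 81 were at least 2-fold lower, beside 6.23% of all genes, and the median was -0.18 with an SD of 0.19. The spread of all genes in the 2 libraries was 0.97 and 0.68. In the RelB-DBDB 8 h library 63 of 81 members were lower than in each of the other 7 libraries, beside 44.4% of all genes, and 6 were higher than in each, beside 14.3%. With median-ratio factors the median in that library was -0.50 (small subunit -0.67, large subunit -0.35), beside 0.00 for all genes. On that scale 16 members were at least 2-fold lower. Lower than in each other library were 49 members, beside 26.8% of all genes.

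**Figure D2:**
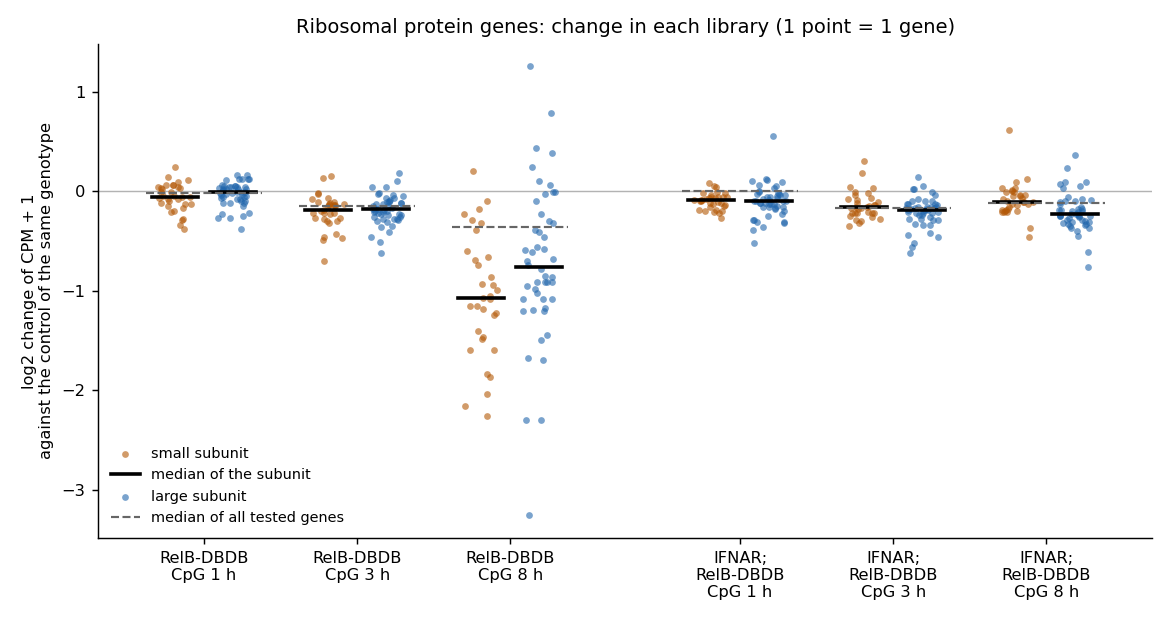
Log2 change of CPM + 1 of each of the 81 tested members against the control of the same genotype, in 6 libraries; each point is 1 gene, black bars are medians of the subunits and dashed lines medians of all tested genes. The points of the RelB-DBDB 8 h library spread from -3.26 to 1.25, and those of the IFNAR;RelB-DBDB 8 h library from -0.77 to 0.61.

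The small subunit was the lower one in that library. Of its 33 tested genes, 32 were below control and 18 were at least 2-fold lower, with a median of -1.08. Of the 48 tested large subunit genes, 41 were below control and 15 were at least 2-fold lower, with a median of -0.76. Of all 12288 genes, 8364 were below control and 19.6% were at least 2-fold lower, with a median of -0.36. With median-ratio factors 26 small and 33 large subunit genes were below control, beside 6118 of all genes. On that scale 9 small and 7 large subunit genes were at least 2-fold lower, beside 10.2% of all genes. In the IFNAR;RelB-DBDB 8 h library the order was the other way, with medians of -0.10 for the small and -0.23 for the large subunit. Of the 6 members that were higher in the RelB-DBDB 8 h library than in each other library, none was a small subunit gene. With median-ratio factors 18 members were higher there than in each other library, beside 29.6% of all genes. Small subunit genes made up 4 of those 18, so that this contrast depended on the scaling.

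The members at the 2 ends of that library show that genes of one complex were at opposite levels in the same sample. Rpl35, a large subunit protein beside the exit of the peptide tunnel, was at 133, 125, 112 and 318 CPM in RelB-DBDB cells (control, 1, 3 and 8 h). In IFNAR;RelB-DBDB cells it was at 140, 113, 103 and 118 CPM. The RelB-DBDB 8 h value stood alone above the 7 others, at 2.40 times its control (95% counting interval 2.27 to 2.54). Rpl23, a protein of the subunit interface that also binds Mdm2, had 494, 537, 529 and 851 CPM under RelB-DBDB and 480, 470, 449 and 439 CPM under IFNAR;RelB-DBDB. Its RelB-DBDB 8 h value was 1.72 times control (1.67 to 1.77) and again above the 7 others. Rpl14, of the large subunit, was at 461, 501, 475 and 624 CPM in the RelB-DBDB libraries, beside 500, 462, 423 and 427 CPM with IFNAR;RelB-DBDB. The 8 h ratios to control were 1.35 (1.31 to 1.4) and 0.855 (0.808 to 0.903), on either side of 1.

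At the other end, Rpl18 of the large subunit was measured at 461, 452, 406 and 92.8 CPM along the RelB-DBDB course, and at 450, 410, 370 and 367 CPM along that of IFNAR;RelB-DBDB cells. The RelB-DBDB 8 h value was 0.201 times its control (0.192 to 0.210), and the IFNAR;RelB-DBDB value 0.815 times (0.768 to 0.865). Rps10, mutated in a human inherited anaemia, had 299, 230, 184 and 61.5 CPM under RelB-DBDB and 244, 203, 202 and 244 CPM under IFNAR;RelB-DBDB. In the second genotype the 8 h level was that of control. Rpl37a, of the large subunit, was at 233, 199, 182 and 46.5 CPM in the RelB-DBDB libraries, beside 239, 186, 173 and 209 CPM with IFNAR;RelB-DBDB. These single-library ratios have no replicate check, and the intervals cover counting error only.

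Sequence around the annotated transcription start is shown for the 3 highest and the 4 lowest members of that library by change, because the pyrimidine run at the 5′ end is the feature by which mRNAs of these genes are recognised. The sequences are from RefSeq on GRCm38.p6, 15 bases before and 15 from the start, 5′ to 3′ on the gene's strand. Capitals mark the longest run of pyrimidines that begins with C within 5 bases of the start and has at least 4 more pyrimidines. Rpl35 lies at chr2:39005117-39005146 (minus strand), Rpl14 at chr9:120571502-120571531 (plus) and Rpl23 at chr11:97782425-97782454 (minus). Rpl22l1 lies at chr3:28805493-28805522 (plus), Rpl18 at chr7:45718056-45718085 (plus), Rps10 at chr17:27635230-27635259 (minus) and Rpl37a at chr1:72711245-72711274 (plus).
Rpl35: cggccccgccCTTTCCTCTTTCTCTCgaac
Rpl14: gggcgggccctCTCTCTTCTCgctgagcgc
Rpl23: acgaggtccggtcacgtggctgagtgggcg
Rpl22l1: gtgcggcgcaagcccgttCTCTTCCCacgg
Rpl18: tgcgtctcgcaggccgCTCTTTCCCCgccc
Rps10: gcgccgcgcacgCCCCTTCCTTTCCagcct
Rpl37a: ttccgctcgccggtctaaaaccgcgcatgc
Both ends held genes with a run of this kind and a gene without one in this window. Only the gene's strand was searched. Of 62 members with a RefSeq promoter entry, 29 (46.8%) had such a run at 1 or more of their starts, as had 21.2% of all genes in the promoter table. A run at the exact annotated base stood at 17.6% of 74 member starts and 2.51% of all starts. In the RelB-DBDB 8 h library the 29 tested members with a run had a median log2 change of -0.70 (range -3.26 to 1.25), and 31 without one had a median of -0.91 (range -2.30 to 0.78). The ranges overlapped over most of their length.

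**Figure D3:**
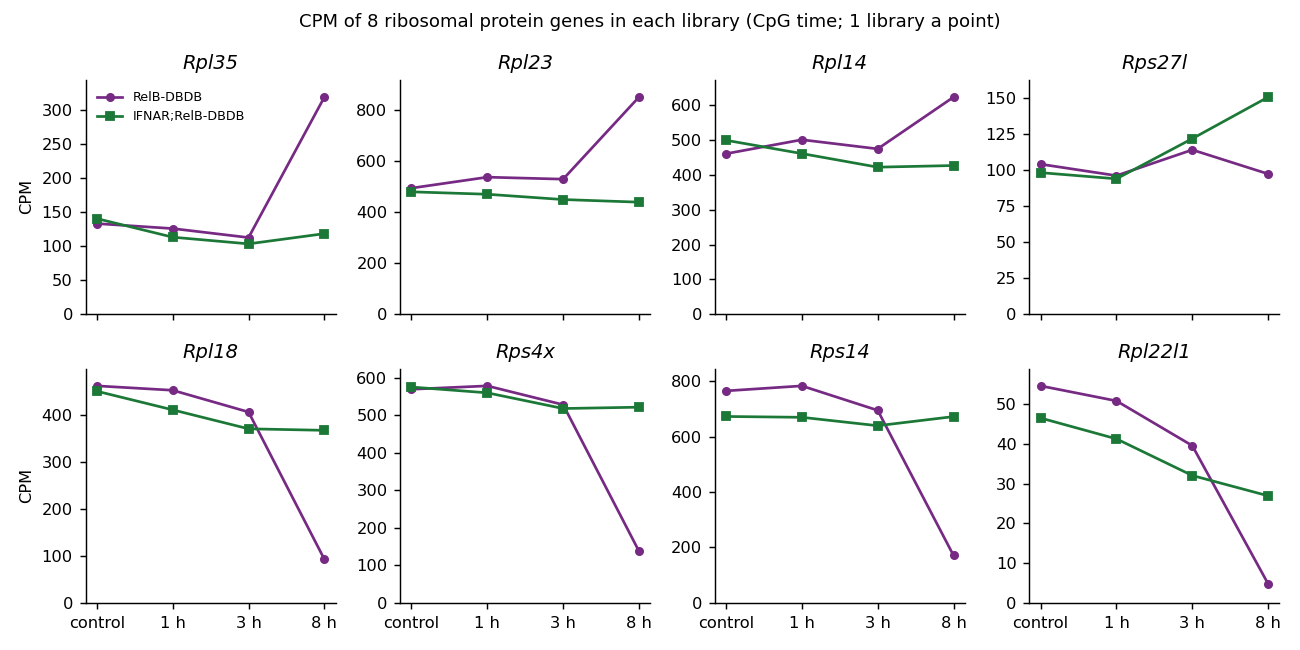
CPM of 8 members (linear axes from 0) in control and at 1, 3 and 8 h of CpG, 1 library a point, for RelB-DBDB (circles) and IFNAR;RelB-DBDB (squares) cells. The genotypes lie close together up to 3 h, and at 8 h the RelB-DBDB value of Rpl35, Rpl23 and Rpl14 lies above and that of Rpl18, Rps4x, Rps14 and Rpl22l1 far below.

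The 3 P stalk genes were close to each other. Rplp0, the stalk base, was measured at 1303, 1256, 1153 and 694 CPM along the RelB-DBDB course, and at 1267, 1161, 1136 and 1105 CPM along that of IFNAR;RelB-DBDB cells. Rplp2, the partner of Rplp1, had 672, 619, 551 and 318 CPM under RelB-DBDB and 685, 554, 547 and 531 CPM under IFNAR;RelB-DBDB. At 8 h the stalk genes stood at 0.532 (Rplp0), 0.472 (Rplp1) and 0.473 (Rplp2) times control in RelB-DBDB cells. Their log2 changes there had an SD of 0.10, beside 0.74 for all members. In the fit over both genotypes 1 of 3 was called at 8 h, Rplp1, beside 21.6% of all genes, and the median was -0.72.

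The members that act on Mdm2 did not share 1 level change. Rpl5 and Rpl11 bind 5S rRNA and, with it, Mdm2. Rpl5 was at 399, 387, 345 and 396 CPM in the RelB-DBDB libraries, beside 384, 378, 337 and 325 CPM with IFNAR;RelB-DBDB. Rpl11 was measured at 449, 425, 404 and 276 CPM along the RelB-DBDB course, and at 428, 404, 369 and 355 CPM along that of IFNAR;RelB-DBDB cells. At 8 h in RelB-DBDB cells Rpl5 was thus at 0.993 times control (0.959 to 1.03) and Rpl11 at 0.616 times (0.595 to 0.637). Rps7, another ligand of Mdm2, was at 0.80 times control (0.770 to 0.831), while Rpl23 was the second highest of all members by change. None of these 4 was called in any comparison in the fit on all 8 libraries. Without the IFNAR;RelB-DBDB 8 h library 3 of them were called at 8 h, Rpl11 and Rps7 lower and Rpl23 higher, beside 57.7% of all genes.

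Among the 7 listed members near the mRNA and tRNA sites, 1 was called at 8 h, Rpl3, beside 21.6% of all genes, and the median log2 change in RelB-DBDB cells was -1.15. Rps14, which lines the path of the mRNA, had 765, 783, 695 and 171 CPM under RelB-DBDB and 673, 670, 639 and 672 CPM under IFNAR;RelB-DBDB. Rps6, the substrate of the S6 kinases, was at 303, 312, 278 and 267 CPM in the RelB-DBDB libraries, beside 301, 284, 268 and 260 CPM with IFNAR;RelB-DBDB. At 8 h Rps14 stood at 0.224 times control in RelB-DBDB and 0.999 times in IFNAR;RelB-DBDB cells, while Rps6 stood at 0.882 and 0.863 times. Rps3 and Rps2, at the entry of the mRNA channel, were at 0.450 and 0.598 times control in RelB-DBDB cells. Rpl4, which lines the peptide tunnel and had the highest CPM of all members, was measured at 1578, 1717, 1506 and 1350 CPM along the RelB-DBDB course, and at 1611, 1615, 1446 and 1320 CPM along that of IFNAR;RelB-DBDB cells. Its 8 h ratios were 0.855 and 0.819, close to each other in the 2 genotypes.

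The 4 X-linked members had the lowest median of the member lists in the RelB-DBDB 8 h library, -1.56, beside -0.15 in the IFNAR;RelB-DBDB one. Rps4x had 569, 578, 528 and 138 CPM under RelB-DBDB and 575, 559, 517 and 521 CPM under IFNAR;RelB-DBDB. Over the 7 libraries other than RelB-DBDB 8 h it was the steadiest tested member, its highest value 1.12 times its lowest. Rpl10, which sits near the tRNA sites, stood at 0.366 times control in RelB-DBDB cells at 8 h and Rpl36a at 0.308 times. Rpl39, a small protein of the tunnel wall, was at 108, 99.8, 94.0 and 72.3 CPM in the RelB-DBDB libraries, beside 89.8, 96.8, 91.4 and 116 CPM with IFNAR;RelB-DBDB. Its 8 h levels lay on opposite sides of control in the 2 genotypes. None of the 4 was called in the fit on all 8 libraries. Without the IFNAR;RelB-DBDB 8 h library their log2 changes at 8 h ran from -2.05 (Rps4x) to -0.50 (Rpl39). The median of all genes in that fit was -0.36.

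The paralogues differed in how their proportion to the standard gene went over the course. Of 8 listed, the table holds 6 and 5 were tested, of which 0 were called in any of the 6 comparisons in the fit on all 8 libraries. Rpl22l1, the paralogue of Rpl22, was measured at 54.6, 50.8, 39.6 and 4.81 CPM along the RelB-DBDB course, and at 46.5, 41.3, 32 and 26.9 CPM along that of IFNAR;RelB-DBDB cells. It was lower at each later time in both genotypes. Rpl22 itself had 320, 333, 285 and 344 CPM under RelB-DBDB and 314, 293, 282 and 278 CPM under IFNAR;RelB-DBDB. Rpl22l1 was therefore at 17.1% and 14.8% of the CPM of Rpl22 in the control libraries, and at 1.4% and 9.69% at 8 h.

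Rps27l, a paralogue of Rps27 that p53 induces in human cells, was at 104, 96.3, 114 and 97.5 CPM in the RelB-DBDB libraries, beside 98.3, 94.1, 122 and 151 CPM with IFNAR;RelB-DBDB. Its 8 h level was the highest of 4 in IFNAR;RelB-DBDB cells, at 1.53 times control (1.38 to 1.70), and close to control in RelB-DBDB cells. Rps27 was measured at 329, 307, 310 and 165 CPM along the RelB-DBDB course, and at 311, 270, 267 and 270 CPM along that of IFNAR;RelB-DBDB cells. The CPM of Rps27l was 31.7% of that of Rps27 in both controls, and 59.2% and 55.8% at 8 h in RelB-DBDB and IFNAR;RelB-DBDB cells. The ratio of the pair, which does not depend on how libraries are scaled, was thus higher at 8 h in both genotypes. By CPM, Rps27 was far lower at 8 h in RelB-DBDB cells and Rps27l was higher in IFNAR;RelB-DBDB cells. Median-ratio factors, 1.05 for RelB-DBDB control and 0.792 for its 8 h library, place the 8 h level of each gene higher. How much each gene of the pair moved in RelB-DBDB cells thus depends on the scaling. In IFNAR;RelB-DBDB cells Rps27l was higher at 8 h on both scales, with log2 changes of 0.61 by CPM and 0.74 with median-ratio factors. Rpl7l1 was at 14.7% to 19% of Rpl7 over the 8 libraries. Rps4l, annotated as a transcribed processed pseudogene, was at 2.32% of Rps4x in RelB-DBDB control. At 8 h in that genotype, where Rps4x was low, Rps4l was at 4.17%, and in the other 6 libraries at 1.73% to 2.46%. Rpl3l, at no more than 3.80 CPM, was at 0.251% to 0.680% of Rpl3.

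Rpsa, the small subunit protein also called laminin receptor, had 885, 809, 734 and 379 CPM under RelB-DBDB and 783, 749, 698 and 726 CPM under IFNAR;RelB-DBDB. Rps27a, made as a fusion with ubiquitin, was at 342, 330, 284 and 179 CPM in the RelB-DBDB libraries, beside 318, 299, 293 and 302 CPM with IFNAR;RelB-DBDB. Rps29, a zinc-binding small subunit protein, was measured at 420, 440, 382 and 266 CPM along the RelB-DBDB course, and at 434, 395, 373 and 420 CPM along that of IFNAR;RelB-DBDB cells. All 3 had their lowest value in the RelB-DBDB 8 h library, and none was called in any comparison in the fit on all 8 libraries. When the IFNAR;RelB-DBDB 8 h library was left out, their log2 changes at 8 h were -1.19 (Rpsa), -0.91 (Rps27a) and -0.70 (Rps29). The median of all genes in that fit was -0.36.

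The order of the members by their change at 8 h had little in common between the genotypes. Across the 80 members with a mean of at least 10 CPM, the 8 h changes of the 2 genotypes had a Pearson r of 0.14 and a Spearman rho of -0.01, beside 0.68 and 0.61 across 8494 genes of that level. At 3 h the values were 0.46 and 0.38 for the members and 0.85 and 0.78 for all such genes. These are descriptions across genes, which are not independent replicates, of pairs of single libraries. In the IFNAR;RelB-DBDB 8 h library the members' changes had an SD of 0.19, beside 0.68 for all tested genes. A narrower spread can by itself lower a correlation, and its part here was not tested. At 8 h 61 of 81 tested members (75.3%) were below control in both genotypes, beside 50.7% of all genes. Above in both was 1 member and 19 were on opposite sides, beside 2618 and 3430 of 12288 genes. With median-ratio factors 31 members were below in both, 5 above in both and 45 on opposite sides. For all genes those counts were 4312, 4312 and 3653, so that the counts at 8 h depended on the scaling.

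**Figure D4:**
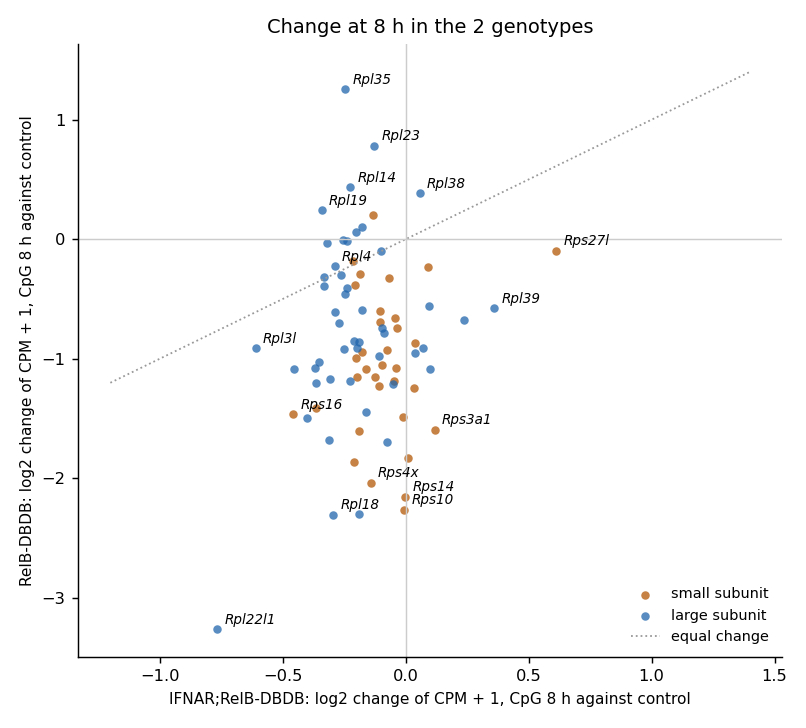
Log2 change of CPM + 1 at 8 h of CpG against control in IFNAR;RelB-DBDB (horizontal) and RelB-DBDB cells (vertical) for the 81 tested members, 1 point a gene; the dotted line marks equal change. Vertically the points run from -3.26 to 1.25 and horizontally from -0.77 to 0.61, and Spearman's rho was -0.01 over 80 members.

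Before 8 h the members were slightly lower in IFNAR;RelB-DBDB than in RelB-DBDB cells, and at 8 h they were higher. In control the median log2 difference, IFNAR;RelB-DBDB minus RelB-DBDB, was -0.05, with 58 of 81 members lower. At 1 h it was -0.14 with an SD over members of 0.07, and 77 of 81 were lower, while the median of all genes was 0.07. At 3 h it was -0.06, with 62 lower. With median-ratio factors the 3 medians were -0.13, -0.22 and -0.10, and 81 of 81 members were lower at 1 h. At 8 h the median was 0.67 with 65 of 81 higher, beside 0.30 for all genes, and with median-ratio factors 0.32 with 55 higher. In control and at 1 and 3 h, 40 members were lower in IFNAR;RelB-DBDB cells in all 3 conditions and 0 were higher in all 3, beside 2397 and 3906 of 12288 genes. With 1 library each, these differences have no replicate check.

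In the fit over all conditions no member was called between the genotypes, beside 6.25% of all genes; 0 had an unadjusted p under 0.05, and limma-voom called 0. The median log2 difference of the members was 0.12 over all 8 libraries, beside 0.11 for all genes. With median-ratio factors it was -0.02, beside -0.01. Without the RelB-DBDB 8 h library it was -0.07, with 78 of 81 members below 0, and 2 were called lower, Rpl22l1 and Rpl17, beside 16.7% of all genes. The test of whether the genotypes differed more at 3 and 8 h than in control and at 1 h called 0 members, beside 0% of all genes; 3 members had an unadjusted p under 0.05, and limma-voom called 0. Without the RelB-DBDB 3 h library it called 68, beside 46.1% of all genes. Leaving out the 3 h library of IFNAR;RelB-DBDB cells instead gave 68, beside 46.2%, in both cases with 62 higher and 6 lower. Those fits had 1 residual degree of freedom and set the 8 h libraries alone against control and 1 h.

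Fau and Rpl36al, which the naming rule leaves out but which also give ribosomal proteins, had their lowest level in the RelB-DBDB 8 h library too. Fau, which encodes a ubiquitin-like protein fused to a small subunit protein, was at 453, 407, 354 and 225 CPM in the RelB-DBDB libraries, beside 448, 354, 347 and 355 CPM with IFNAR;RelB-DBDB. Rpl36al, a copy of Rpl36a on another chromosome, was measured at 43.3, 34.6, 30.1 and 25.1 CPM along the RelB-DBDB course, and at 40.4, 34.0, 33.5 and 35.3 CPM along that of IFNAR;RelB-DBDB cells. Neither was called. Both were below control at every CpG time in both genotypes.

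Lists of other translation genes had medians closer to 0 in that library. Their medians of log2 change there were -0.40 for 29 initiation factors, -0.62 for 7 elongation factors and -0.43 for 39 genes of ribosome biogenesis. They were -0.66 for 14 genes of RNA polymerase I and its factors and -0.65 for 75 proteins of the mitochondrial ribosome. The members without paralogues were at -0.91. The median of all tested genes there was -0.36, close to those of the initiation factors and biogenesis genes. In the fit over both genotypes 5 of 29 initiation factors (17.2%) were called lower at 8 h, beside 15.1% of all genes, among them Eif1, which guards the choice of start codon (log2 change -1.17, SE 0.27, adjusted p = 0.0249, limma), and Eif4h, a cofactor of the helicase eIF4A (-0.84, SE 0.23, adjusted p = 0.0430, limma). No elongation factor was called. Of the biogenesis genes 2 of 39 (5.13%) were called lower, a share below that of all genes, the rRNA methyltransferase Fbl (-0.91, SE 0.23, adjusted p = 0.0317, limma) and the stalk assembly factor Mrto4 (-0.80, SE 0.20, adjusted p = 0.0341, limma).

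Ubtf, the factor that holds ribosomal RNA genes open for RNA polymerase I, was the only 1 of 14 genes of that list called at 3 h or at 8 h. It had 252, 254, 176 and 146 CPM under RelB-DBDB and 263, 260, 153 and 166 CPM under IFNAR;RelB-DBDB, so that the 3 h and 8 h values were below the control and 1 h values in both genotypes. It fell by 0.65 at 3 h (SE 0.14, adjusted p = 0.0388, limma) and by 0.72 at 8 h (SE 0.14, adjusted p = 0.0147, limma). Of 22 tested genes that regulate ribosomal protein synthesis 5 (22.7%) were called lower at 8 h, beside 15.1% of all genes, led by Mxd4, a Max partner that opposes Myc (-1.94, SE 0.35, adjusted p = 0.0112, limma), and Eif4ebp1, a repressor of cap-dependent translation under mTOR (-1.41, SE 0.27, adjusted p = 0.0137, limma). The others were Maf1, a repressor of RNA polymerase III, Tsc1, a brake on mTOR, and Eif4ebp2, a relative of Eif4ebp1.

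Of 75 tested mitochondrial ribosomal proteins, encoded in the nucleus for a separate ribosome, 3 (4%) were called lower at 3 h, beside 3.87% of all genes, and 12 (16%) at 8 h, beside 15.1%. Both shares were near those of all genes. At 3 h Mrps34 fell by 0.85 (SE 0.19, adjusted p = 0.0435, limma) and Mrps35 by 0.80 (SE 0.18, adjusted p = 0.0403, limma). At 8 h Mrps26 fell by 1.55 (SE 0.27, adjusted p = 0.00985, limma), with 51.6 CPM in control and 12.5 CPM at 8 h under RelB-DBDB, and 78.8 and 35.3 CPM under IFNAR;RelB-DBDB. Between the genotypes the 1 gene called among all these lists was Eif3j1, a loosely bound subunit of the initiation factor eIF3, at 23.8, 23.1, 28.7 and 47.1 CPM under RelB-DBDB and 12.2, 9.17, 10.0 and 5.66 CPM under IFNAR;RelB-DBDB (log2 difference -1.61, SE 0.30, adjusted p = 0.0271, limma). Eif3j1 has a near-identical copy in the mouse, between which reads can be split. With median-ratio factors the calls at 8 h were 2 of 29 initiation factors (Eif1 among them, 1 lower and 1 higher), 0 of 39 biogenesis genes, 4 of 22 regulators and 5 of 75 mitochondrial ribosomal proteins, beside 19.1% of all genes. Ubtf was then not called at 3 h (adjusted p = 0.0635, limma) and was at 8 h (adjusted p = 0.0466, limma). Without the RelB-DBDB 8 h library the named genes of these lists were still called, at smaller log2 changes at 8 h for Eif1 (-0.67), Eif4h (-0.41), Mxd4 (-1.24) and Eif4ebp1 (-0.93). Leaving out 1 of the other libraries instead ended the call of many of them, as counted in the closing section.

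**Figure D5:**
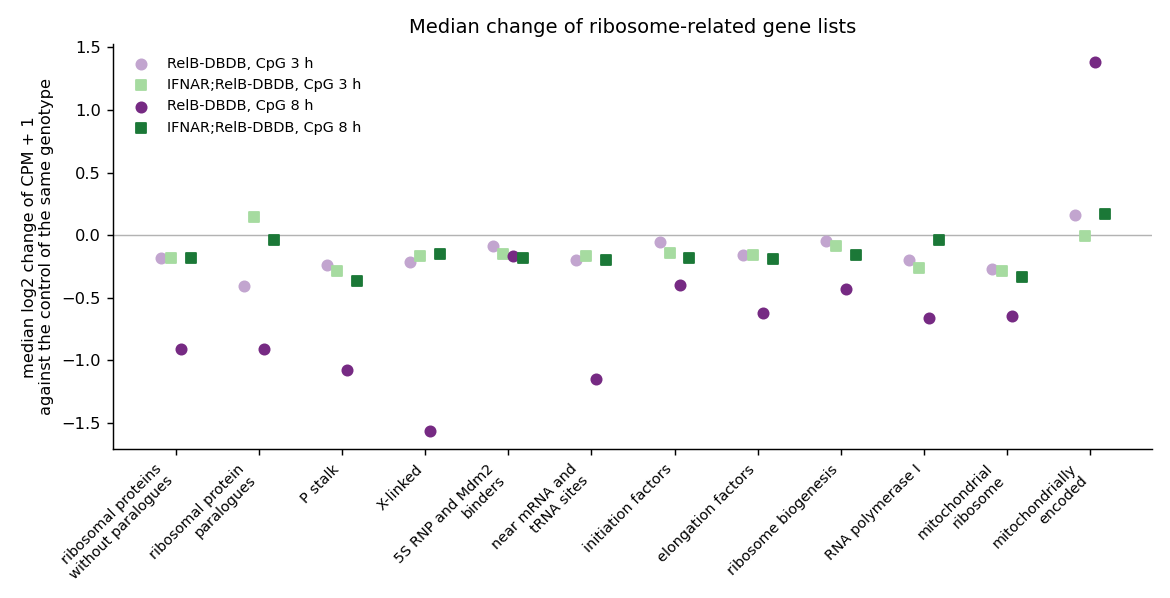
Median log2 change of CPM + 1 of 12 ribosome-related gene lists against the control of the same genotype, at 3 h (pale) and 8 h (dark) of CpG, in RelB-DBDB (circles) and IFNAR;RelB-DBDB (squares) libraries. At 8 h in RelB-DBDB cells the members without paralogues stand at -0.91 and the mitochondrially encoded genes at 1.38, while the IFNAR;RelB-DBDB medians lie between -0.37 and 0.17.

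Several other measures moved with the RelB-DBDB 8 h library. The 12 tested mitochondrially encoded genes had a median log2 change of 1.38 there, beside 0.17 in the IFNAR;RelB-DBDB 8 h library. Leaving those genes out of the library totals gave the members 2.28% of reads at 8 h and 3.61% in control in RelB-DBDB cells, so that the share was still lower. The summed level of the dendritic cell markers was 8935 CPM there and 13882 to 17830 CPM in the other 7 libraries. The macrophage and monocyte list summed to 1596 CPM beside 1657 to 2318 CPM, and the neutrophil list to 118 CPM beside 183 to 232 CPM. The mast cell and basophil list summed to 6.77 CPM beside 10.6 to 36.1 CPM. Of 6 erythroid genes, 5 were at 0 in that library and the list summed to 0.296 CPM, beside 3 to 5 at 0 and 1.48 to 4.92 CPM in the others. The list of T, NK and B cells summed to 34.5 CPM, beside 34.9 to 42.9 CPM in the other RelB-DBDB and 129 to 155 CPM in the IFNAR;RelB-DBDB libraries. The part of these measures in the members' levels was not tested.

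Within the members, the features of the transcript that were looked at had weak correlations with the change in that library. Over 79 members with an annotated transcript, Pearson's r of the change with transcript length was 0.03, and with GC content -0.04 (Spearman's rho -0.17). Over all 8104 genes of at least 10 CPM with a transcript, the change had an r of -0.30 with GC content. With the number of annotated pseudogene copies the members' r was 0.14. These are descriptions across genes that share 1 pair of libraries.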

How the data were processed

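The deposited signal values are CPM plus 1, as a test of the file showed: the lowest value is 1 in each of 8 columns, and values minus 1 are whole multiples of 1 read (tolerance 0.01 read) for 100% of values. From this, reads per library were worked back. A stranded mRNA kit was used on 1 µg of RNA, and 50 bp were read from 1 end, per the labels' protocols; cutadapt, edgeR and mm10 are named in the submitters' processing notes. Which aligner and annotation were used, and whether counting heeded strand, is not given in the sources used here. A further 16 columns belong to other samples and entered no step.

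The planned design foresaw counts; because the file holds normalized values, an additive model of genotype and condition was fitted to log2(CPM + 1) by limma 3.58.1 in R 4.3.3 (trended eBayes), with 3 residual degrees of freedom. A log2 change on this scale understates that of low genes. The 12297 rows that reached 1 CPM in 2 or more of 8 libraries were tested, with Benjamini-Hochberg adjustment over all of them and a threshold of 0.05. The late-phase test used an interaction, with 2 residual degrees of freedom. The fit was tested on simulated data with changes at 3 h only, equal in both genotypes. A change in 1 genotype alone was not simulated. Ratios of 2 libraries have exact 95% intervals of 2 Poisson counts; these and the floor of 3 reads for a count of 0 cover counting error only. Coordinates and transcripts came from GENCODE M21 on mm10, where 86 of 87 members matched, and promoter sequences from RefSeq, where 62 did. Plots used matplotlib 3.10.9 (Python 3.11.15).

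The genes, lists and tests were chosen with earlier results of these data known. Named were all members of the lists of paralogues, stalk, X-linked, 5S RNP and Mdm2, and mRNA and tRNA site genes, the 4 largest called changes each way in each comparison, the 3 highest and 3 lowest members per kb, Rpsa, Rps27a and Rps29, and the 2 largest called changes of each list of other ribosome genes. Rpl13, Rpl27a, Rps10, Rpl14, Rpl18, Rpl35, Rpl37a, the partners of paralogues and the genes on opposite sides of control at 8 h were chosen after their values were seen. A further gene is not reported here.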

Additional observations from a re-analysis of the deposited data

Results flagged for a closer look

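At 8 h of CpG, 10 tested members had levels on opposite sides of control in the 2 genotypes, each with both counting intervals excluding a ratio of 1; 7 members did so at 1 h and 1 at 3 h. The differences were not tested, since each genotype and time has 1 library. The counting intervals take the library totals as given, and no count over all genes by this rule is given here. Whatever their interval, 19 of 81 members were on opposite sides at 8 h, beside 3430 of 12288 genes. With median-ratio factors 45 members were, beside 3653 genes, so that the side of control depended on the scaling. Below control in RelB-DBDB and above it in IFNAR;RelB-DBDB cells were Rps3a1 (log2 changes -1.59 and 0.12, a difference of -1.71), Rpl9 (-1.08 and 0.10, a difference of -1.18), Rpl39 (-0.58 and 0.36, a difference of -0.94) and Rpl7l1 (-0.68 and 0.24, a difference of -0.91). Above control in RelB-DBDB and below it in IFNAR;RelB-DBDB cells were Rpl35 (1.25 and -0.25, a difference of 1.5), Rpl23 (0.78 and -0.13, a difference of 0.91), Rpl14 (0.44 and -0.23, a difference of 0.66), Rpl19 (0.24 and -0.34, a difference of 0.59), Rps26 (0.20 and -0.13, a difference of 0.33) and Rpl22 (0.10 and -0.18, a difference of 0.28). Rps3a1 has further copies in the table, Rps3a2 and Rps3a3, at under 0.668 CPM in every library.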

How the results depend on the processing

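The count of members called at 8 h was 3, and 0 with median-ratio factors, with TMM factors, with no filter on low values and with no genotype term; it was 15 with limma-voom. Leaving out each library in turn (the library left alone in its condition is assumed to have the spread of the rest), the counts ran from 0 to 0 at 1 h, 0 to 30 at 3 h, 0 to 69 at 8 h, 0 to 63 for 8 h against 3 h, 0 to 2 between genotypes and 0 to 68 in the late phase. The ratio of small to large subunit in the RelB-DBDB 8 h library was 0.539 without the paralogues, and its median log2 change was -0.50 with median-ratio factors. Without mitochondrially encoded genes in the totals, the members' share was 3.61, 3.55, 3.20 and 2.28 percent in RelB-DBDB and 3.51, 3.26, 3.08 and 3.12 percent in IFNAR;RelB-DBDB cells (control, 1, 3 and 8 h). With median-ratio factors it was 3.35, 3.37, 3.28 and 2.70 percent and 3.10, 2.90, 3.07 and 2.99 percent. The cause of these changes was not tested. The 16 fitted values of named genes kept their direction in all 144 repeats under other settings and all 128 without 1 library; 36 and 71 of these no longer passed the threshold, among them 8 of 16 with median-ratio factors and 7 with TMM factors. The planned edgeR test was not run, since the file holds CPM plus 1. The median-ratio scaling of single libraries was added after seeing the data. With 3 residual degrees of freedom and 1 library a group, a member that missed the threshold is not shown to be unchanged.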
